A study of Rattus norvegicus with 13 samples.

Results

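The 46 genes described here make, sense, desaturate, take up, store, export or burn cholesterol and fatty acids. They were chosen by role and gene symbol, as probe sets annotated to exactly 1 gene. Of the 46 genes, 45 were measured, with 78 probe sets, among 14217 genes that the array represents in this way, and Hmgcs1 was not analysed here. By role they comprise 18 enzymes of sterol synthesis (17 measured), 5 genes of sterol sensing, 9 of fatty acid synthesis and desaturation, 6 of lipid uptake and intracellular carriage, 6 of sterol efflux, oxysterols and sterol storage, and 2 of fatty acid use and glycerolipid synthesis.

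RNA came from articular chondrocytes, the cells of joint cartilage, taken out of femoral head cartilage of Wistar rats (males, 2 months old), and each flask was hybridized to its own Affymetrix rat array. Cells of the second passage were pooled before they were divided among flasks in medium with fetal bovine serum, so that all 13 arrays derive from 1 pool. The groups were untreated cultures (n = 3), cultures with 20 mM glucosamine for 20 hours (n = 2), cultures with 10 ng/ml IL-1β, an inflammatory cytokine, for 14 hours (n = 4), and cultures kept in glucosamine for 6 hours before IL-1β was added for 14 hours (n = 4), called both agents below. The untreated and glucosamine groups are smaller because samples of theirs did not pass the quality assessment of the arrays by the authors, and those are not analysed here. The spread behind each p-value is thus that of flasks from a single pool, and fewer cells of a type cannot be told apart from less RNA per cell.

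Cells build cholesterol from acetyl-CoA by way of mevalonate, farnesyl diphosphate, squalene and lanosterol. The SREBP transcription factors, encoded by Srebf1 and Srebf2, turn on the genes of sterol and fatty acid synthesis. SCAP escorts them from the endoplasmic reticulum, and the INSIG proteins hold them there when sterols are plentiful. Oxysterols such as 25-hydroxycholesterol, the product of CH25H, bind INSIG proteins and activate the LXR nuclear receptors, whose known targets include the exporters Abca1 and Abcg1 and also Srebf1. In cartilage, the oxysterol enzymes CH25H and CYP7B1 are known from work on osteoarthritis.

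Signals are the deposited expression values in scaled units, given as mean ± SD. Differences are log2 fold changes, computed after values under 5.71, the 25th percentile of all values, were set to that floor, and a fold against a group with arrays at the floor is a lower bound. A gene was called where the limma test, fitted to the 4 groups together, gave a Benjamini-Hochberg adjusted p under 0.05 over all 29263 tested probe sets. Each gene is represented by its brightest probe set.

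IL-1β alone raised 9 and lowered 10 of the 45 genes. The same test called 24.1% of all tested probe sets, 11.1% higher and 13% lower. Of the 13748 tested genes, each by its brightest probe set like the 45, it called 2137 higher and 2100 lower. Ch25h, Fabp4, Abcg1 and Insig1 rose most, and Fads2, Srebf1 and Vldlr fell most. The median log2 fold change of the 45 genes was 0.01, against 0.09 for all 13748 tested genes. Of the 6 genes of sterol efflux, oxysterols and storage 4 rose and 0 fell. Of 17 sterol enzymes 1 rose and 4 fell, and of 5 sensing genes 1 rose and 2 fell. Of 9 genes of fatty acid synthesis 0 rose and 3 fell. Of 6 genes of uptake and carriage 2 rose and 1 fell, and of 2 genes of fatty acid use 1 rose and 0 fell.

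Glucosamine alone, compared with the same 3 untreated arrays, raised 9 and lowered 5 of the 45, beside 14.7% of all tested probe sets called, 7.14% higher and 7.56% lower, with a median log2 fold change of 0.03 for the 45. With quantile normalization the split was 10 higher and 2 lower. With both agents, 9 genes were higher and 14 lower than with IL-1β alone, beside 23.3% called, 11.9% higher and 11.4% lower (median -0.06, against 0.03 for all tested genes). Over glucosamine alone, both agents raised 4 genes and lowered 3, beside 1.79% called, 0.933% higher and 0.861% lower (median -0.06, against 0.03). In a fit to these 2 groups alone only 1 of the 7, Srebf1, was called (adjusted p = 0.024, limma). The interaction, which compares the response to IL-1β with and without glucosamine, was called in 9 genes, 2 upward and 7 downward, beside 8.54% of probe sets called, 3.98% upward and 4.57% downward (median -0.12, against 0.03). Among the 13748 tested genes, 1 probe set each, the test called 1424 higher and 1288 lower with glucosamine. For both agents against IL-1β it called 2173 higher and 2039 lower. Over glucosamine it called 199 higher and 155 lower, and in the interaction 703 upward and 918 downward. In all, 30 of the 45 genes were called in at least 1 of the 5 comparisons. The other 15 were Acaca, Acly, Cd36, Cyp51, Ebp, Elovl6, Fasn, Lss, Msmo1, Mvk, Nr1h2, Pmvk, Sc5d, Scap and Stard4. Of these, Sc5d, Elovl6 and Cyp51 had other, dimmer probe sets that were called, as described with each gene.

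**Figure D1:**
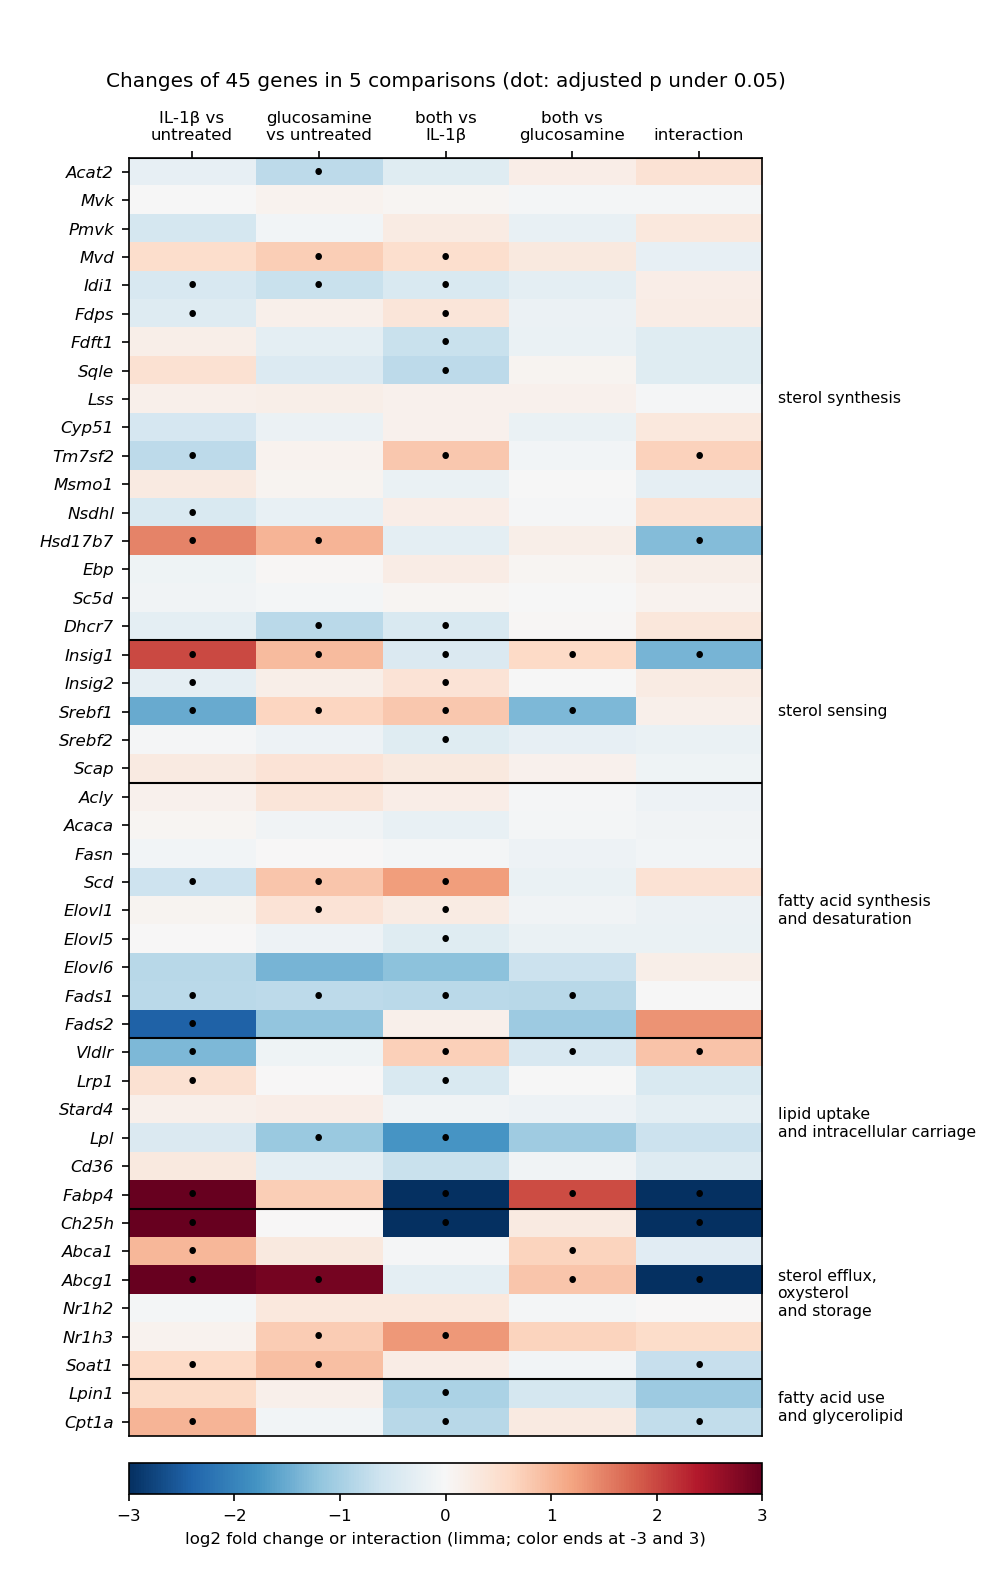
Log2 fold changes of the 45 measured genes (rows, ordered by role) in 4 comparisons and the interaction (columns), with a color scale that ends at -3 and 3 and a dot where the adjusted p from limma was under 0.05. Calls are most frequent in the third column, with 23 genes, and the strongest colors are those of Fabp4, Ch25h and Abcg1.

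Insig1 and Srebf1 responded in opposite directions to IL-1β. Insig1, which encodes a protein that retains SREBP in the endoplasmic reticulum, had signals of 288, 279 and 289 in untreated and 567 and 527 in glucosamine cultures. With IL-1β these were 1089.8, 1067, 1033 and 1317, and with both agents 748, 798, 800.2 and 964. The 4 groups did not overlap, in the order untreated, glucosamine, both agents and IL-1β. IL-1β raised Insig1 3.93-fold (log2 fold change 1.98, standard error 0.10, adjusted p = 3.8e-08, limma) and glucosamine raised it 1.92-fold (adjusted p = 1.9e-04). Both agents were 0.45 log2 units below IL-1β alone (adjusted p = 0.0033) and 0.59 above glucosamine alone (adjusted p = 0.016), and the interaction was -1.38 (adjusted p = 9.6e-05). The rise over glucosamine was not called without glucosamine replicate a (adjusted p = 0.10) or replicate b (adjusted p = 0.25).

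Srebf1, the gene of SREBP-1, followed a different order. Its signals were 428, 476 and 449 in untreated, 653 and 770.0 in glucosamine, 142, 159.7, 163 and 167 in IL-1β cultures and 289.6, 304, 266 and 251 with both agents. Again the groups did not overlap, but here IL-1β was lowest and glucosamine highest. IL-1β lowered Srebf1 2.86-fold (log2 fold change -1.51, standard error 0.09, adjusted p = 1.2e-07, limma), and over glucosamine it lowered it 2.56-fold (-1.36, standard error 0.10, adjusted p = 2.1e-05). The interaction was 0.16 (95% interval -0.13 to 0.44) and was not called. Glucosamine raised Srebf1 by 0.66 over untreated cultures (adjusted p = 0.001) and by 0.81 over IL-1β (adjusted p = 1.7e-05). The other probe set of Srebf1 gave the same 4 calls.

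The remaining sensing genes moved less. Insig2, a relative of Insig1 with the same retaining role, was at 186 ± 8.29 without treatment (n = 3) and 155 ± 8.95 with IL-1β (n = 4), and its fall of 0.26 was close to the threshold (adjusted p = 0.049, limma). That call was lost in 14 of 25 alternative analyses, among them those without any 1 untreated or IL-1β array or both-agent replicate a or c (adjusted p = 0.051 to 0.18). With both agents Insig2 was 0.42 above IL-1β alone (adjusted p = 0.0026). The other probe set of Insig2 gave -0.18 and 0.27 for these and was not called. Srebf2, the gene of SREBP-2, the main activator of sterol synthesis, was at 296 ± 23.1 without treatment (n = 3) and 291 ± 31.8 with IL-1β (n = 4), a difference of -0.03 that was not called. Both agents lowered it by 0.35 relative to IL-1β (adjusted p = 0.015), which its other probe set did not call (-0.18). Scap was not called in any comparison.

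Promoters of these genes are shown for the 2 sensing genes and the 2 sterol enzymes whose RNA moved most with IL-1β. RefSeq sequences (build GRCr8) were at hand for 36 of the 46 genes, with 37 starts because Srebf1 has 2. Those without one were Sqle, Fabp4, Lpl, Abcg1, Acaca, Elovl6, Pmvk, Fasn, Stard4 and Fdft1. In each, the 250 bases before the start were searched on both strands for the core of the sterol regulatory element bound by SREBP (TCACNCCAC), for the box of NF-Y, a common partner of SREBP (CCAAT), and for the direct repeat of the LXR motif AGGTCA with 4 bases between (DR4). Capitals mark the NF-Y boxes, which read ATTGG where they lie on the opposite strand.
Insig1 (chr4:8057770-8058019, minus strand): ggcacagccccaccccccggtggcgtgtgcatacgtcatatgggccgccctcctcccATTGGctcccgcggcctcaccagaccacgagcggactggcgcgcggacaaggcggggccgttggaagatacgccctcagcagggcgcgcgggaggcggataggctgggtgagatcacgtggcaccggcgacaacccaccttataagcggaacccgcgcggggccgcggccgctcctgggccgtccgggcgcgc
Srebf1, first start (chr10:45529165-45529414, minus strand): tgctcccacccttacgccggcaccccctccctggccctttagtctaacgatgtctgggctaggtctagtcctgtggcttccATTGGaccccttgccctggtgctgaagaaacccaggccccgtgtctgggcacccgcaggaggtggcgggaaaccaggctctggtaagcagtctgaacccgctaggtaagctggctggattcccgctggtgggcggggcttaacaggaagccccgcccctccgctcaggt
Srebf1, second start (chr10:45519011-45519260, minus strand): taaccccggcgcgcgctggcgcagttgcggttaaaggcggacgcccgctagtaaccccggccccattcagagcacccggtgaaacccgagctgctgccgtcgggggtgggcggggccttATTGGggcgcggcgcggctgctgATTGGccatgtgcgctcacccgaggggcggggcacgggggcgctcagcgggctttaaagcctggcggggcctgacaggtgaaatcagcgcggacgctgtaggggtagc
Hsd17b7 (chr13:84722755-84723004, minus strand): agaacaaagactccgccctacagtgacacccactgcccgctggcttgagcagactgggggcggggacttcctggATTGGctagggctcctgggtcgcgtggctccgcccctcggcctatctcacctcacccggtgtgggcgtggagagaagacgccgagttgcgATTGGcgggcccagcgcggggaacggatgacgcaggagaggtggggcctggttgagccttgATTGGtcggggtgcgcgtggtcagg
Tm7sf2 (chr1:212789542-212789791, minus strand): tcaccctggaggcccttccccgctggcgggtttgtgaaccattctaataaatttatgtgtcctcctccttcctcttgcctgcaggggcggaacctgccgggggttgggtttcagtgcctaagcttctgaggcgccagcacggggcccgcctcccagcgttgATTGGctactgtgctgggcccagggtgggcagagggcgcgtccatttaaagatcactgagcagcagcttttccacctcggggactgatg
The NF-Y box was in 22 of the 37 promoters (59.5%), against 34% of all 33469 promoters. By role it was in 12 of 15 promoters of sterol synthesis, Hmgcs1 included, 5 of 6 of sterol sensing, 3 of 6 of fatty acid synthesis and desaturation, 0 of 3 of uptake and carriage, 1 of 5 of efflux, oxysterols and storage, and 1 of 2 of fatty acid use. The core of the sterol regulatory element and the DR4 were not among the letters of the 37 windows, and 0.974% and 0.00299% of all promoters held them. These matches describe letters in a short window and are not binding sites.

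The enzymes that convert acetyl-CoA to cholesterol did not move as a block. IL-1β raised 1 and lowered 4 of the 17 (median log2 fold change -0.14). Glucosamine raised 2 and lowered 3 (median -0.05), and both agents raised 3 and lowered 4 relative to IL-1β (median 0.06). Of all 13748 tested genes, IL-1β raised 2137 and lowered 2100, and glucosamine raised 1424 and lowered 1288. Both agents raised 2173 and lowered 2039 of them relative to IL-1β. Over glucosamine alone, limma called 0 of the 17 for both agents, where 1 had an unadjusted p under 0.05 and the analysis of variance with Tukey test of the methods also called 0. Calls were few in that comparison, with 199 higher and 155 lower among all 13748 tested genes.

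**Figure D2:**
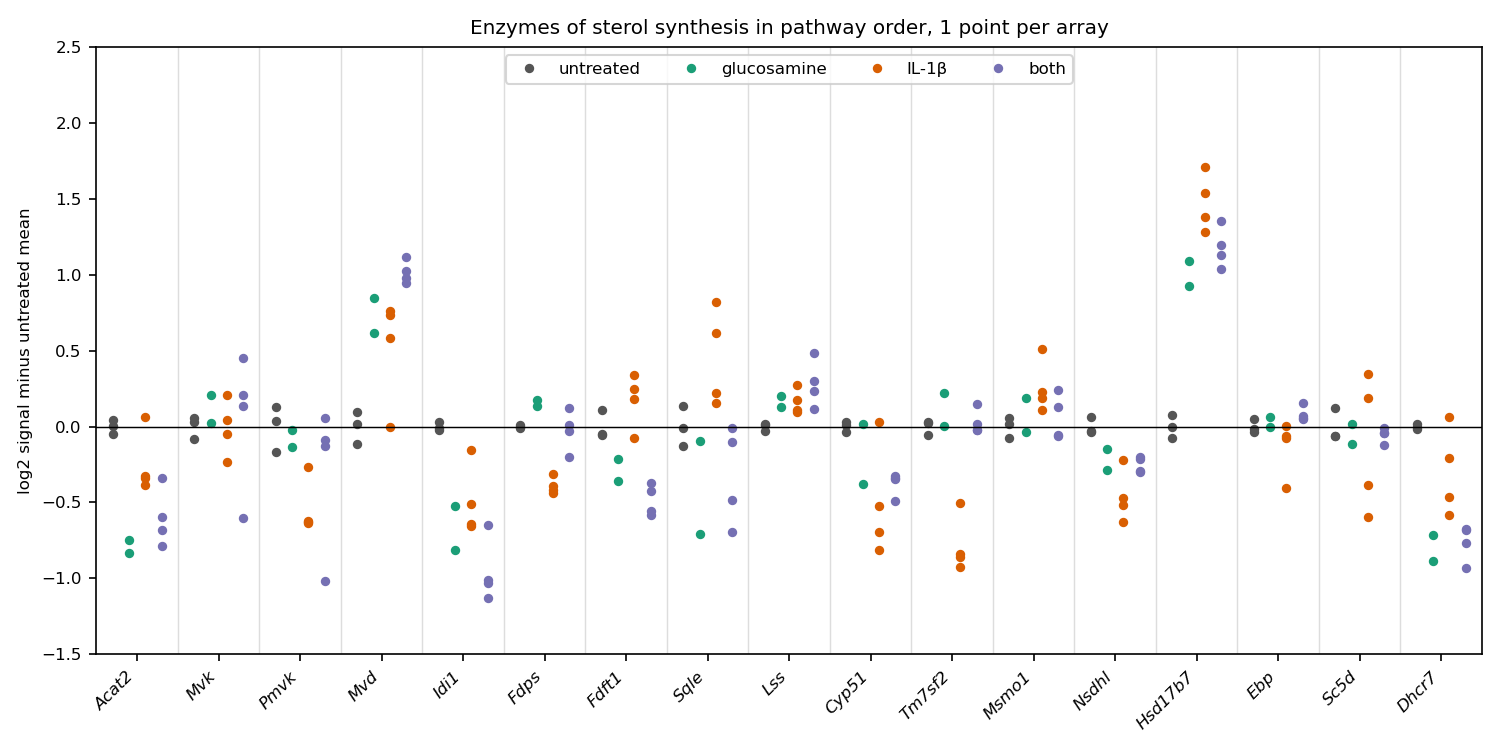
Log2 signal of each array minus the mean of the untreated arrays (vertical axis) for the 17 measured enzymes of sterol synthesis, ordered from the first to the last step of the pathway (horizontal axis), with 1 point per array colored by group. Hsd17b7 stands above the untreated level on all 10 treated arrays, and Tm7sf2 lies below it on the 4 IL-1β arrays.

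Hsd17b7 and Tm7sf2 are both enzymes of the steps after lanosterol, and they went opposite ways with IL-1β. Hsd17b7, the sterol 3-ketoreductase, had signals of 40.8, 38.9 and 43.1 in untreated and 87.1 and 77.7 in glucosamine cultures, then 134, 119, 106 and 99.2 with IL-1β and 89.4, 83.9, 105 and 93.7 with both agents. All treated arrays lay above the untreated ones, and the IL-1β and both-agent arrays overlapped. IL-1β raised it 2.79-fold (log2 fold change 1.48, standard error 0.12, adjusted p = 2.3e-06, limma), glucosamine raised it 2.01-fold (1.01, standard error 0.14, adjusted p = 4.8e-04), and the interaction was -1.31 (adjusted p = 6.5e-04). Its other probe set was not called (for IL-1β 1.18, adjusted p = 0.47), and none of the 3 calls was kept with the mean of both probe sets.

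Tm7sf2, the sterol C14-reductase, had signals of 198, 197 and 186 in untreated, 226 and 194 in glucosamine, 102, 137, 108 and 107 in IL-1β cultures and 190.2, 214, 196 and 190.2 with both agents. Only the IL-1β arrays stood apart from the other 3 groups, and they were below them. IL-1β lowered it by 0.78 (standard error 0.10, adjusted p = 1.1e-04, limma), both agents were 0.81 above IL-1β (adjusted p = 5.6e-05), and the interaction was 0.70 (adjusted p = 0.013). Without glucosamine replicate b the interaction was 0.59 and was not called (adjusted p = 0.095). Fdps, which makes farnesyl diphosphate, moved in the same directions on a smaller scale: it went from 441 ± 3.34 (n = 3) to 337 ± 13.1 (n = 4) with IL-1β (-0.39, standard error 0.07, adjusted p = 0.0012) and was at 435 ± 40.1 (n = 4) with both agents (adjusted p = 0.0012 against IL-1β). Nsdhl, a sterol decarboxylase, fell by 0.46 with IL-1β (adjusted p = 0.003), and its other probe set gave -1.01 and no call (adjusted p = 0.13).

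Idi1, the isopentenyl diphosphate isomerase, was lower after each agent. It was at 145.4 ± 2.89 (n = 3) in untreated, 91.9 ± 13.1 (n = 2) in glucosamine and 105 ± 18.0 (n = 4) in IL-1β cultures, and at 75.6 ± 11.7 (n = 4) with both agents. The falls were 0.67 for glucosamine (adjusted p = 0.022, limma), 0.49 for IL-1β (adjusted p = 0.028) and 0.47 for both agents against IL-1β (adjusted p = 0.025). These calls were close to the threshold, and the other probe set of Idi1 was not called, with -0.96, -0.45 and -0.70. The fall with IL-1β was lost without any 1 of the 3 untreated arrays or without IL-1β replicate b, c or d (adjusted p = 0.059 to 0.093), and that with glucosamine without any 1 untreated array or glucosamine replicate b (0.057 to 0.23). The fall against IL-1β was lost without IL-1β replicate a or b or both-agent replicate a, c or d (0.053 to 0.068).

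Other sterol enzymes moved with glucosamine. Glucosamine lowered Acat2, which starts the pathway, from 102 ± 3.28 (n = 3) to 59.2 ± 2.40 (n = 2; log2 fold change -0.79, standard error 0.16, adjusted p = 0.0049, limma), and lowered Dhcr7, the last reductase, from 67.2 ± 0.807 to 38.7 ± 3.25 (-0.80, standard error 0.19, adjusted p = 0.014). It raised Mvd, the mevalonate diphosphate decarboxylase, from 37.1 ± 2.65 to 61.8 ± 7.05 (0.73, standard error 0.21, adjusted p = 0.037). Relative to IL-1β, both agents lowered Fdft1, the squalene synthase, 1.58-fold (adjusted p = 2.7e-04), Sqle, the squalene epoxidase, 1.71-fold (adjusted p = 0.013) and Dhcr7 1.38-fold (adjusted p = 0.041), and raised Mvd 1.41-fold (adjusted p = 0.048). The calls of Fdft1 and Sqle were kept without any single array but lost in the analysis of variance with Tukey test of the methods. That of Mvd against IL-1β was lost without any 1 array other than IL-1β replicates c and d (adjusted p = 0.053 to 0.12), and that of Dhcr7 without any 1 other than IL-1β replicates b and c and both-agent replicate d (0.054 to 0.11). The call of Acat2 was lost without glucosamine replicate a (adjusted p = 0.050), that of Dhcr7 for glucosamine without either glucosamine array or untreated replicate b (0.051 to 0.13), and that of Mvd for glucosamine without any 1 array other than IL-1β replicates a, c and d and both-agent replicate d (0.053 to 0.28). With the replicate letter as a block, Acat2 was also called lower with both agents than with IL-1β (-0.35, adjusted p = 0.0047).

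Some dimmer probe sets gave calls that the brightest one of the gene did not. For Sc5d, a desaturase near the end of the pathway, the brightest probe set gave -0.11 for IL-1β (adjusted p = 0.71, limma), while both others were called lower, by 0.67 (adjusted p = 6.8e-04) and 0.30 (adjusted p = 0.033), and the latter was called 0.39 higher with both agents than with IL-1β (adjusted p = 0.0054). For Cyp51, the lanosterol demethylase, the dimmer probe set was called 0.62 higher with both agents than with IL-1β (adjusted p = 0.016), against 0.12 and no call for the brightest. The other probe set of Fdft1 was called lower with IL-1β (-0.55, adjusted p = 0.029) and with glucosamine (-0.69, adjusted p = 0.033), where the brightest gave 0.17 and -0.29 and no call.

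Among the genes of fatty acid synthesis, the desaturases changed and the synthases were not called. Acly, Acaca and Fasn, which supply and assemble the carbon chain, had log2 fold changes with IL-1β of 0.13, 0.06 and -0.08 (95% intervals -0.14 to 0.40, -0.31 to 0.42 and -0.27 to 0.11). IL-1β raised 0 and lowered 3 of the 9 genes of this group (median -0.08), glucosamine raised 2 and lowered 1 (median -0.12), and both agents raised 2 and lowered 2 relative to IL-1β (median -0.06). The calls among all tested genes in these comparisons are those given above.

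Fads1, the delta-5 desaturase of polyunsaturated fatty acids, was lowered by each agent and further by both. Its signals were 601, 699 and 655 in untreated, 379.5 and 373 in glucosamine, 430.5, 391, 316 and 348 in IL-1β cultures and 199.9, 244, 188 and 213 with both agents. The untreated arrays were above all others, those of the single agents overlapped, and those with both agents were below all others. IL-1β lowered Fads1 by 0.82 without glucosamine (standard error 0.11, adjusted p = 1.8e-04, limma) and by 0.84 with it (standard error 0.13, adjusted p = 0.0042). The interaction was -0.02, with a 95% interval of -0.39 to 0.35. Glucosamine lowered it by 0.79 without IL-1β (adjusted p = 0.0017) and by 0.81 with it (adjusted p = 1.3e-04). The fall over glucosamine was not called without glucosamine replicate a (adjusted p = 0.069) or replicate b (adjusted p = 0.063).

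Scd, the stearoyl-CoA desaturase, which makes monounsaturated fatty acids, responded to the agents in opposite directions. Its signals were 351, 328 and 353 in untreated, 594 and 629 in glucosamine, 155, 219, 238 and 310.1 in IL-1β cultures and 549, 585, 531 and 480.0 with both agents. The groups did not overlap, with IL-1β lowest, then untreated, then both agents and then glucosamine. Both agents were 2.39-fold above IL-1β alone (log2 fold change 1.26, standard error 0.16, adjusted p = 1.4e-04, limma), and glucosamine was 1.78-fold above untreated (adjusted p = 0.019). The fall with IL-1β was 0.62 (adjusted p = 0.022) and was not called without any 1 of the 3 untreated arrays (adjusted p = 0.053 to 0.076). The rise with glucosamine was not called without either glucosamine array or untreated replicate b (0.063 to 0.13). The interaction, 0.43, was not called (95% interval -0.15 to 1.01).

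Fads2, the delta-6 desaturase, was dim. It had signals of 15.6, 47.1 and 39.7 in untreated cultures and 13.5 and 13.5 with glucosamine, and was at or under the floor on all 4 IL-1β arrays and on 2 of 4 arrays with both agents. IL-1β lowered it at least 5.39-fold (adjusted p = 1.7e-04, limma), and the difference between glucosamine and untreated cultures, -1.19, was not called (adjusted p = 0.068). Among the elongases, glucosamine raised Elovl1, which extends saturated and monounsaturated chains, by 0.42 (adjusted p = 0.0015) and both agents were 0.24 above IL-1β (adjusted p = 0.0064). Elovl5, which extends polyunsaturated chains, was 0.37 lower with both agents than with IL-1β (adjusted p = 0.017), but its other probe set gave 0.33 and no call, and the mean of both -0.02 and no call. Elovl6 was at 64.9 ± 3.99 (n = 3), 24.6 ± 2.40 (n = 2), 38.0 ± 12.8 (n = 4) and 18.8 ± 13.8 (n = 4) without treatment and with glucosamine, IL-1β and both agents, and this probe set was not called, with standard errors of 0.47 to 0.76. The other probe set of Elovl6, which extends long saturated chains, was called lower with IL-1β, from 40.3 ± 5.87 (n = 3) to 19.7 ± 3.93 (n = 4; -1.04, adjusted p = 0.014, limma), and with glucosamine, to 13.9 ± 0.470 (n = 2; -1.52, adjusted p = 0.007). With the replicate letter as a block, the brighter probe set was called lower with both agents than with IL-1β (-1.22, adjusted p = 0.029).

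**Figure D3:**
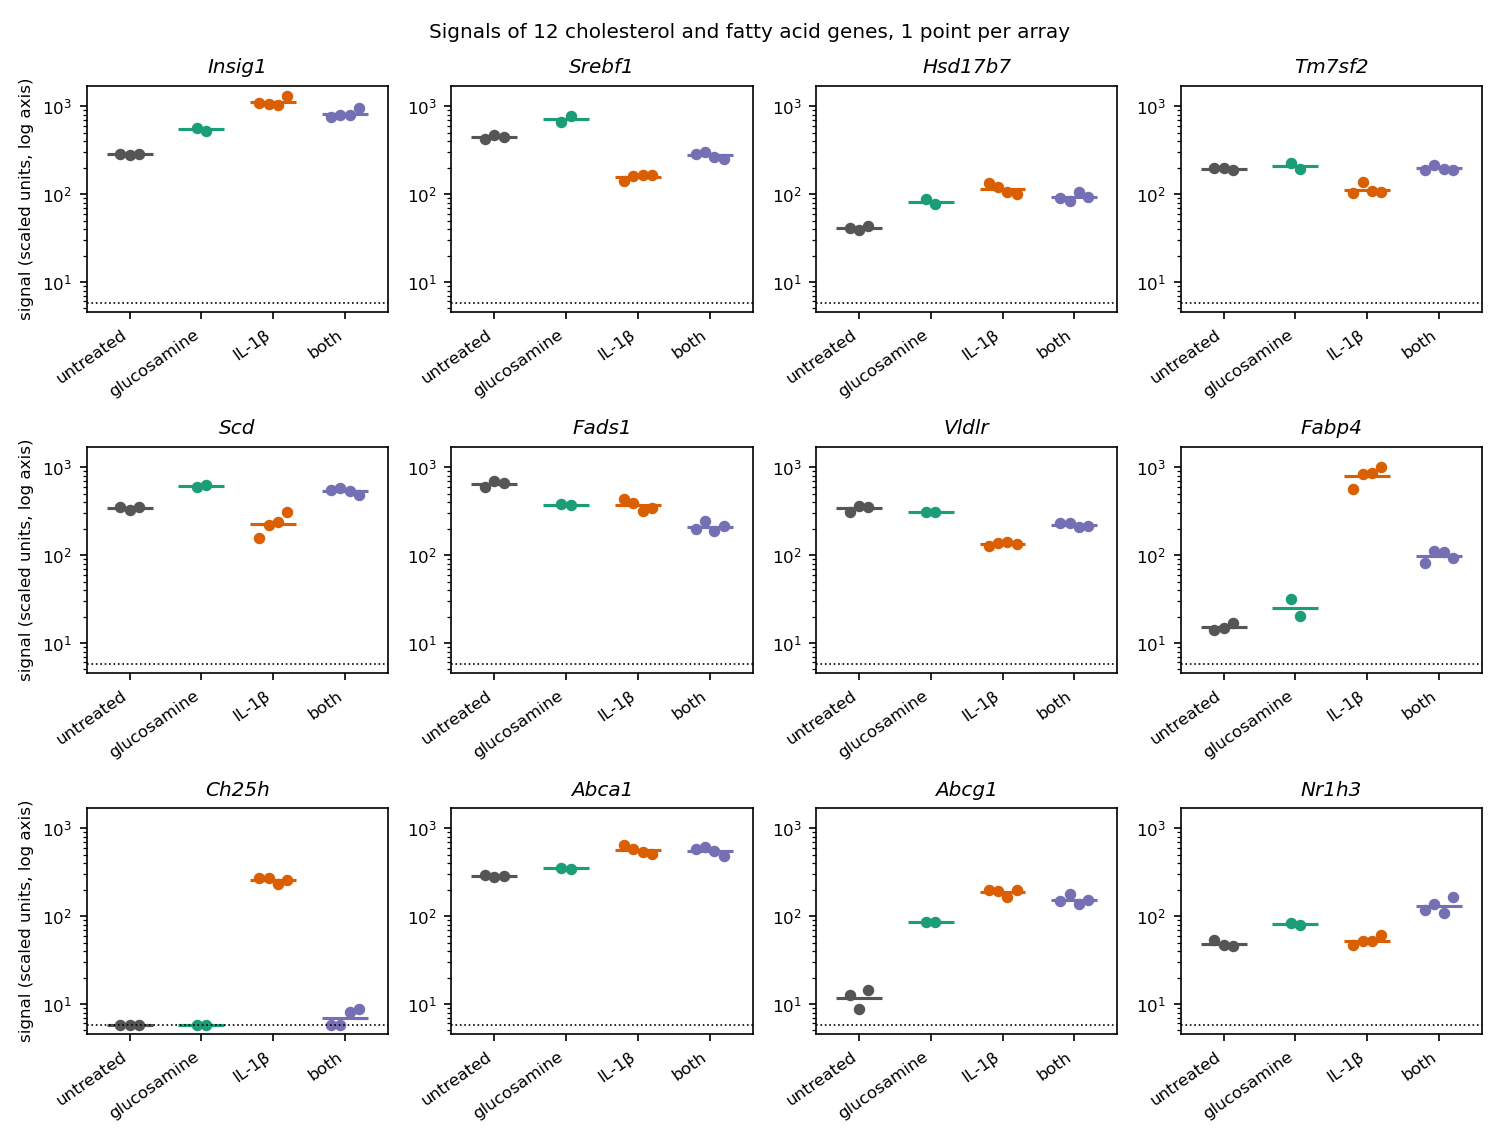
Signals on each array (points; logarithmic axis, scaled units) of 12 of the genes in the 4 groups, with the geometric mean of each group (bar) and the floor of 5.71 (dotted line), at which lower values are drawn. Ch25h is above 200 on the 4 IL-1β arrays and under 10 on the other 9, while Abca1 and Abcg1 are higher on IL-1β and both-agent arrays than on untreated and glucosamine arrays.

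Lipid uptake and carriage held the gene with the largest rise among those above the floor in all groups. Fabp4, the fatty acid binding protein known from adipocytes and macrophages, had signals of 14.1, 14.6 and 17.0 in untreated and 31.3 and 20.2 in glucosamine cultures. With IL-1β they were 570.5, 843, 852 and 1004, and with both agents 81.8, 112, 109 and 93.2. The groups did not overlap, and the lowest IL-1β array was above every array with both agents. IL-1β raised Fabp4 52.6-fold (log2 fold change 5.72, standard error 0.20, adjusted p = 3.2e-09, limma). With both agents it was 8.16-fold lower than with IL-1β alone (adjusted p = 4.1e-07) and 3.90-fold higher than with glucosamine (adjusted p = 8.0e-04), and the interaction was -3.75 (adjusted p = 1.5e-05). The call over glucosamine was kept without any single array and lost in a fit to these 2 groups alone (adjusted p = 0.060).

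Because Fabp4 is also a marker of other cell types, their markers were examined. Of 6 adipocyte markers measured, 1 was called, Cidec, a lipid droplet protein, which was at the floor on all untreated and glucosamine arrays and at 51.1, 42.5, 36.5 and 66.3 with IL-1β (at least 8.38-fold higher, adjusted p = 1.4e-05, limma). It was at least 6.58-fold lower with both agents (adjusted p = 2.6e-05). The markers Adipoq, Pparg, Plin1, Cfd and Lep were not called, with signals of 10.9, 2.59, 8.88 and 21.8 for Adipoq and 7.70, 7.18, 3.61 and 26.5 for Plin1 on the IL-1β arrays. The highest values of Adipoq, Pparg and Plin1 were on the replicate d array with both agents. The summed level of the 6 ranged from 34.3 to 37.2 in untreated, 34.3 to 34.7 in glucosamine and 68.3 to 132 in IL-1β cultures, and from 34.3 to 183 with both agents.

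Of 8 macrophage and leukocyte markers, 1 was called for IL-1β, Cd68, with 219, 189, 211 and 132 on the IL-1β arrays and values under 0 on the untreated ones. With both agents Cd68 was at least 5.285-fold lower than with IL-1β (adjusted p = 0.019, limma), and its interaction was -5.00 (adjusted p = 0.012). The leukocyte antigen Ptprc was between 6.84 and 9.84 on the IL-1β arrays, and the sum of the 8 was 49.6 to 60.4 in untreated, 78.2 to 88.5 in glucosamine and 242.9 to 382 in IL-1β cultures and 117 to 261 with both agents. Of 6 endothelial markers, Pecam1 and Tek were called higher with IL-1β, and the sums were 72.7 to 99.2 in untreated, 76.5 to 81.0 in glucosamine and 110.7 to 243.8 in IL-1β cultures and 75.5 to 189 with both agents. The highest IL-1β and both-agent sums of adipocyte, leukocyte and endothelial markers were all on the replicate d arrays. On IL-1β replicate d, Aif1 was at 84.3 and Cd3e at 69.0, against at most 20.9 and 15.4 on replicates a to c. Chondrocyte markers were high in untreated cultures, with Col2a1 at 3819 ± 346 (n = 3), and 6 of 6 fell with IL-1β, with sums of 9387 to 10630.0 in untreated, 7227 to 7569.7 in glucosamine and 5099.5 to 6187 in IL-1β cultures and 5639 to 6790.3 with both agents. The part of other cell types in the level of Fabp4 was not tested.

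Vldlr, the receptor for triglyceride-rich lipoproteins, was lowered by IL-1β. Its signals were 312, 363 and 349.6 in untreated, 309.8 and 309 in glucosamine, 126.6, 136, 142 and 134 in IL-1β cultures and 231, 233, 208 and 214 with both agents. The groups did not overlap, and the both-agent arrays lay between those of IL-1β and of glucosamine. IL-1β lowered Vldlr 2.53-fold (log2 fold change -1.34, standard error 0.07, adjusted p = 5.5e-08, limma). Over glucosamine the fall was 0.48 (adjusted p = 0.0068), and the interaction was 0.86 (adjusted p = 2.7e-04). All 3 other probe sets of Vldlr were also called lower with IL-1β, and 1 of the 3 was called in the interaction (1.04, adjusted p = 0.0069). The fall over glucosamine was not called without either glucosamine array (adjusted p = 0.089 and 0.090), by any of the 3 other probe sets (-0.42, -0.28 and -0.30, adjusted p = 0.37 to 0.82) or with the mean of all 4 (-0.37, adjusted p = 0.13). With both agents Vldlr was 0.72 above IL-1β (adjusted p = 7.4e-06), called by 2 of the other 3 probe sets as well.

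Lpl, the lipoprotein lipase, which frees fatty acids from lipoproteins, was dim and lowest with both agents. Its signals were 33.4, 33.9 and 33.4 in untreated, 15.1 and 15.7 in glucosamine, 30.0, 27.9, 26.4 and 17.5 in IL-1β cultures and 3.78, 8.86, 10.0 and -1.81 with both agents, so that the groups did not overlap. With both agents Lpl was at least 3.40-fold lower than with IL-1β alone (adjusted p = 4.1e-04, limma). The fall with glucosamine, 1.12, had an adjusted p of 0.047 and was lost without any 1 array other than IL-1β replicate d and both-agent replicates c and d (0.050 to 0.21). Lrp1, a receptor of many ligands, went from 672 ± 6.84 (n = 3) to 922 ± 85.7 (n = 4) with IL-1β (0.45, standard error 0.15, adjusted p = 0.046) and was 0.45 lower with both agents (adjusted p = 0.034). The rise was lost without any 1 untreated array, IL-1β replicate a, c or d or both-agent replicate b or c (adjusted p = 0.057 to 0.12), and the fall without any 1 untreated array, IL-1β replicate a or c or both-agent replicate b (0.051 to 0.087). The other probe set of Lrp1 was not called, with 0.19 and 0.18. Cd36, the fatty acid translocase, and Stard4, a cholesterol carrier, were not called in any comparison, except that with the replicate letter as a block Cd36 was lower with both agents than with IL-1β (-0.67, adjusted p = 0.012).

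The genes of sterol efflux, oxysterols and storage were those of which IL-1β raised most, 4 of 6, beside 2137 of all 13748 tested genes. Ch25h, which makes 25-hydroxycholesterol, was at or under the floor on all 3 untreated and both glucosamine arrays and had signals of 273, 269, 231 and 261 with IL-1β. With both agents its signals were 0.837, 4.60, 8.13 and 8.69, at or under the floor on 2 of 4 arrays. It was the IL-1β arrays alone that stood well above the floor. IL-1β raised Ch25h at least 45.1-fold (standard error of the log2 fold change 0.23, adjusted p = 9.2e-09, limma), and with both agents it was at least 37.2-fold lower than with IL-1β alone (adjusted p = 1.8e-08). The interaction was -5.22 (adjusted p = 3.3e-06). Over glucosamine the difference was 0.28 (95% interval -0.28 to 0.84) and was not called.

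Cyp7b1, which hydroxylates such oxysterols further and belongs to the other sterol genes examined, showed a like set of values. Its signals were 15.5, 17.2 and 16.3 in untreated, 10.7 and 5.08 in glucosamine, 701, 523, 451 and 563 in IL-1β cultures and 25.6, 30.5, 29.7 and 49.0 with both agents. The IL-1β arrays were above all others, and those with both agents were next. IL-1β raised Cyp7b1 33.9-fold (log2 fold change 5.08, standard error 0.26, adjusted p = 5.0e-08, limma), and both agents left it 16.9-fold lower than IL-1β alone (adjusted p = 2.5e-07). Over glucosamine it was at least 4.17-fold higher (adjusted p = 0.003).

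The exporters Abca1 and Abcg1, which pass cholesterol to lipoproteins, had signals above those of untreated and glucosamine cultures on every array with both agents. Abca1 had signals of 294, 276 and 288 in untreated, 356 and 345 in glucosamine, 642, 585, 544 and 508 in IL-1β cultures and 583, 612, 545 and 483 with both agents. The last 2 groups overlapped and were above the rest. IL-1β raised Abca1 1.98-fold without glucosamine (log2 fold change 0.99, standard error 0.09, adjusted p = 7.0e-06, limma) and 1.58-fold with it (0.66, standard error 0.10, adjusted p = 0.0053), and both agents differed from IL-1β by -0.04 (95% interval -0.22 to 0.15). By that last comparison 1 of the other 3 probe sets was called lower (-0.35, adjusted p = 0.0051). The rise over glucosamine was not called without glucosamine replicate a (adjusted p = 0.064) or b (adjusted p = 0.090). All 3 other probe sets of Abca1 were called higher with IL-1β, without and with glucosamine. The interaction, -0.33 and not called by the brightest probe set, was called by 2 of the other 3 (-0.92 and -0.44), and the same 2 were called higher with glucosamine.

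Abcg1 had signals of 12.7, 8.74 and 14.5 in untreated, 86.5 and 86.0 in glucosamine, 200.3, 192, 165 and 196 in IL-1β cultures and 148, 178, 138 and 154 with both agents. All treated arrays were above the untreated ones. IL-1β raised it 16.0-fold (log2 fold change 4.00, standard error 0.16, adjusted p = 6.9e-09, limma) and glucosamine raised it 7.35-fold (2.88, standard error 0.19, adjusted p = 1.8e-06). The interaction was -3.17 (adjusted p = 8.3e-06). Both agents differed from IL-1β alone by -0.29, which was not called, so the level with IL-1β was not called different with glucosamine. The other probe sets of Abcg1 were not called in any comparison: by the first, whose signals were 41.7 ± 4.47 without treatment (n = 3) and 49.4 ± 14.2 with IL-1β (n = 4), the log2 fold change was 0.20, and by the second, at 6.48 and 16.5, it was 1.23. The rises of Abcg1 therefore rest on 1 of 3 probe sets. In untreated cultures that probe set was dimmer than the first of the others, and it was the brightest only through the treated arrays. The rise over glucosamine, 0.83, was lost without any 1 array other than IL-1β replicate c and untreated replicates b and c (adjusted p = 0.052 to 0.32).

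Nr1h3, the gene of LXRα, was raised by glucosamine, while its difference with IL-1β alone, 0.11, was not called. Its signals were 53.8, 46.4 and 45.4 in untreated, 83.8 and 79.0 in glucosamine, 46.5, 51.6, 51.5 and 61.0 in IL-1β cultures and 117, 137, 108 and 164 with both agents. Untreated and IL-1β arrays overlapped, and both groups with glucosamine were above them. Both agents raised Nr1h3 2.48-fold over IL-1β alone (log2 fold change 1.31, standard error 0.14, adjusted p = 2.9e-05, limma), and glucosamine raised it 1.68-fold over untreated cultures (adjusted p = 0.014). The latter call was lost without untreated replicate c (adjusted p = 0.052) or without glucosamine replicate a or b (0.11 and 0.072). Nr1h2, the gene of LXRβ, was at 198 ± 0.819 without treatment (n = 3) and 191 ± 37.1 with IL-1β (n = 4) and was not called.

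Soat1, which esterifies cholesterol for storage, had signals of 214, 207 and 202 in untreated, 393 and 383 in glucosamine, 262, 308, 319 and 373 in IL-1β cultures and 336, 369, 386 and 373 with both agents. The 3 treated groups overlapped in part and were all above the untreated one. Glucosamine raised Soat1 1.87-fold (adjusted p = 2.5e-04, limma) and IL-1β raised it 1.51-fold (adjusted p = 7.3e-04). The interaction of -0.68 (adjusted p = 0.013) was lost without glucosamine replicate a or b (adjusted p = 0.070 and 0.054), and the other probe set of Soat1 was not called in any comparison.

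Cpt1a, which carries long fatty acids into mitochondria for oxidation, was high with IL-1β alone. Its signals were 255, 221 and 236 in untreated, 232 and 214 in glucosamine, 587, 440.5, 428 and 469 in IL-1β cultures and 228, 270.2, 267 and 317 with both agents. The IL-1β arrays were above all others, and the other 3 groups overlapped. IL-1β raised Cpt1a 2.01-fold (log2 fold change 1.01, standard error 0.12, adjusted p = 8.0e-05, limma), and both agents were 1.78-fold lower than IL-1β alone (adjusted p = 2.4e-04). Both calls were lost in the analysis of variance with Tukey test of the methods. The interaction of -0.74 (adjusted p = 0.031) was lost without untreated replicate b or c, either glucosamine array or both-agent replicate b or c (adjusted p = 0.053 to 0.15), and the other probe set of Cpt1a, with 0.89 for IL-1β, was not called in any comparison (adjusted p = 0.13). Lpin1, a phosphatidate phosphatase of glycerolipid synthesis, was at 58.2 ± 16.4 (n = 4) with IL-1β and 29.4 ± 4.08 (n = 4) with both agents, 1.94-fold lower (adjusted p = 0.0038), and its other probe set was not called (-0.59).

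The responses to IL-1β without and with glucosamine were then set side by side. The first compares IL-1β with untreated arrays and the second both agents with glucosamine arrays, so they share no array. Of the 19 genes called without glucosamine, 7 were also called with it: Insig1, Srebf1, Fads1, Vldlr, Fabp4, Abca1 and Abcg1. Those of Vldlr and Abcg1 with glucosamine were called by the brightest probe set only. In a fit to the glucosamine and both-agent groups alone, only 1 of the 7, Srebf1, was called. The interaction was called in 9 of the 19, and in Insig1, Vldlr, Fabp4 and Abcg1 both the smaller response with glucosamine and the interaction passed the test. The interaction includes the difference of IL-1β from untreated arrays by which the 19 were called, which by itself favors interactions of opposite sign. Srebf1 and Fads1 had responses of similar size in both settings, as given above, and their interactions were not called. Both agents differed from IL-1β in the opposite direction to the IL-1β response in 11 of the 19, but these comparisons share the 4 IL-1β arrays, which by itself favors opposite signs.

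Of the genes, 25 had more than 1 probe set, with 33 probe sets besides the brightest. Over the 5 comparisons these gave 165 pairs of calls, of which 118 were the same, 47 were called by 1 of the pair only, and 0 were called in opposite directions. Most of the 118 were pairs in which neither probe set was called. Pairs with both probe sets called were found only in Srebf1, Vldlr, Abca1 and Fdft1.

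**Figure D4:**
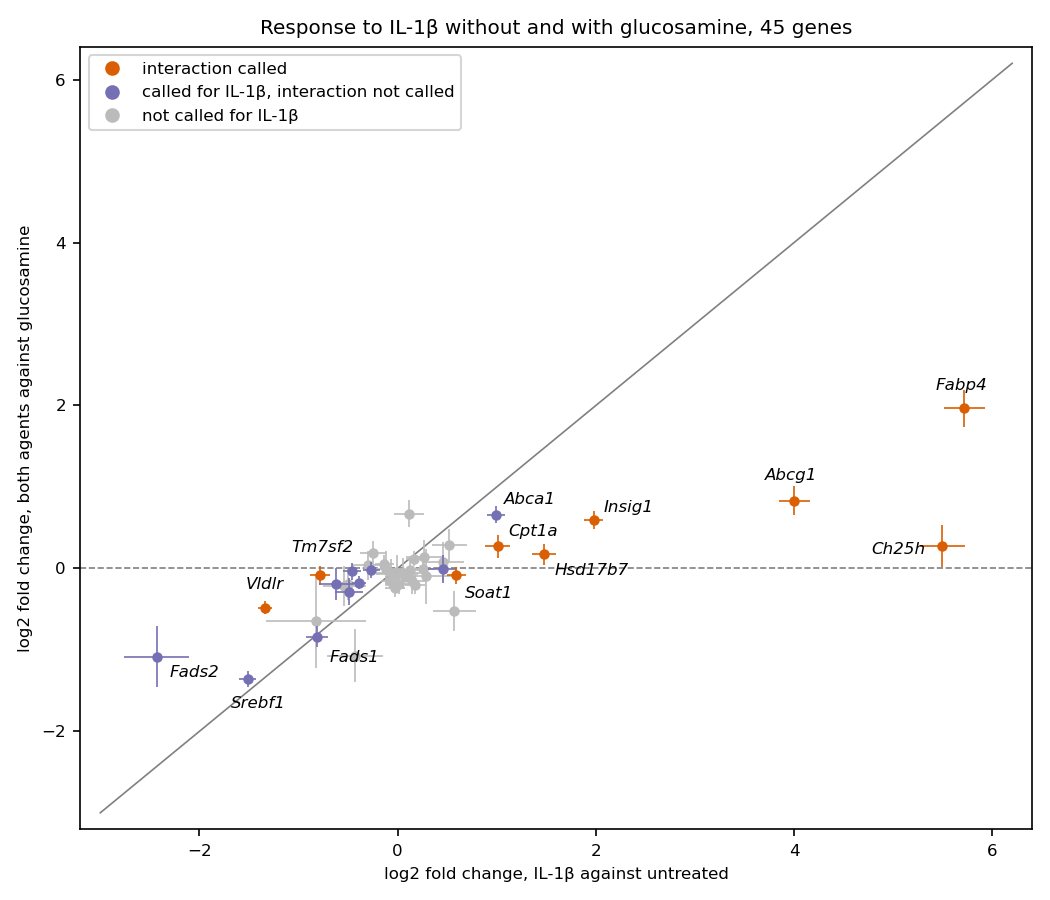
Log2 fold change of the 45 genes for IL-1β against untreated cultures (horizontal axis) and for both agents against glucosamine (vertical axis), with standard errors from limma as bars, colored by whether the interaction or the IL-1β response was called. Points on the solid line responded equally in both settings and points on the dashed line have a log2 fold change of 0 with glucosamine. Srebf1 and Fads1 lie on or near the solid line, and Ch25h lies near the dashed one.

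Further genes of these pathways were examined as 3 lists. For comparison, IL-1β raised 2137 and lowered 2100 of all 13748 tested genes (median 0.09), and glucosamine raised 1424 and lowered 1288. Relative to IL-1β, both agents raised 2173 and lowered 2039 of these genes (median 0.03). Over glucosamine they raised 199 and lowered 155 (median 0.03). Of 17 other sterol genes measured, IL-1β raised 6 and lowered 4 (median log2 fold change 0.18). Besides Cyp7b1, the largest rise was that of Nceh1, a cholesterol ester hydrolase, from 167 ± 0.947 (n = 3) to 704 ± 64.9 (n = 4; 4.20-fold, adjusted p = 3.5e-08, limma), which both agents lowered 2.04-fold relative to IL-1β (adjusted p = 8.4e-06). The largest falls were those of Acat1, the mitochondrial acetoacetyl-CoA thiolase (2.12-fold lower), and Scarb1, the HDL receptor (1.79-fold lower, adjusted p = 5.7e-04), and the interaction of Scarb1 was called at 0.78 (adjusted p = 0.033). Glucosamine raised 4 and lowered 2 of the 17 (median 0.41), with the largest rises in Nceh1 (1.91-fold) and Mylip (1.77-fold), an LXR target that degrades lipoprotein receptors. Mylip also rose by 0.73 with IL-1β alone (adjusted p = 5.1e-05), and with both agents it was 0.68 above glucosamine (adjusted p = 0.0029) and 0.78 above IL-1β (adjusted p = 2.1e-05). Both agents raised 5 and lowered 4 of the 17 relative to IL-1β (median 0.19), among them Cyp27a1, another oxysterol enzyme (2.43-fold higher), Lipa, the lysosomal acid lipase (1.83-fold higher), and Lrp8, a lipoprotein receptor (3.25-fold lower).

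Of 26 other fatty acid and glycerolipid genes, IL-1β raised 8 and lowered 4 (median 0.09). The largest rises were those of Fabp5, another fatty acid binding protein, from 1041 ± 79.4 (n = 3) to 2847 ± 211 (n = 4; 2.73-fold, adjusted p = 1.1e-07, limma), and Dgat2, a triglyceride synthase (2.53-fold), and the largest falls those of Gpam (1.86-fold lower) and Acss2 (1.73-fold lower), which start glycerolipid synthesis and activate acetate. Glucosamine raised 6 and lowered 1 (median 0.13), with Fabp5 2.19-fold and the lipid droplet protein Plin2 2.10-fold higher. Relative to IL-1β, both agents raised 4 and lowered 5, with Acsl1, an acyl-CoA synthetase (2.83-fold lower), and Dgat2 (2.62-fold lower) below, and Slc27a4, a fatty acid transporter (1.91-fold higher), and Dgat1 (1.53-fold higher) above. Over glucosamine alone limma called 0 of the 26, and 4 had an unadjusted p under 0.05, beside 199 higher and 155 lower of all 13748 tested genes.

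Of 21 genes of fatty acid oxidation, IL-1β raised 3 and lowered 7 (median -0.25), and glucosamine raised 1 and lowered 7 (median -0.25). Of all 13748 tested genes IL-1β raised 2137 and lowered 2100 (median 0.09), and glucosamine raised 1424 and lowered 1288. Hadh, the hydroxyacyl-CoA dehydrogenase, fell with each agent, from 260.5 ± 13.6 (n = 3) to 74.1 ± 7.26 (n = 2) with glucosamine (3.52-fold lower, adjusted p = 4.3e-06, limma) and to 98.9 ± 8.73 (n = 4) with IL-1β (2.64-fold lower, adjusted p = 2.5e-06), and was at 57.1 ± 6.97 (n = 4) with both agents. Acaa2, the thiolase of the same cycle, was 2.30-fold lower with glucosamine (adjusted p = 0.0024), and Ehhadh, a peroxisomal enzyme, at least 3.37-fold lower with IL-1β (adjusted p = 0.0021). Acadl, the long-chain acyl-CoA dehydrogenase, instead rose with IL-1β, 1.96-fold (adjusted p = 3.1e-06), and both agents were 1.54-fold below that (adjusted p = 7.9e-05). Relative to IL-1β, both agents raised 3 and lowered 9 of the 21 (median -0.13), and Echs1, the enoyl-CoA hydratase, was 2.17-fold lower (adjusted p = 3.0e-05). Over glucosamine, 1 of the 21 was called, Etfb, an electron carrier (-0.37, adjusted p = 0.037).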

How the data were processed

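Per the labels and methods, the authors made the array files with Microarray Suite (MAS5 in the labels, version 5), estimated a linear expression intensity for each probe set with Probe Profiler and scaled each array globally. Samples that failed their quality assessment are not analysed here, and 13 arrays remained. The deposited intensities were used as they stand: array means were 127.2 to 144.5 and 75th percentiles 111.9 to 118.7. On the replicate d arrays of IL-1β and of both agents the 1st percentile was -31.0 and -36.8, against -6.47 to -4.81 on the other 11. The number of arrays limits the precision.

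Of 31099 probe sets, 57 controls were left out. Symbols came from the platform annotation, which gives 1 gene for 20826 probe sets, several for 436 and none for 9780. Values under the 25th percentile (5.71) were set to it and log2 transformed, and the 29263 probe sets above that floor on at least 1 array were tested. limma 3.58.1 in R 4.3.3 was fitted to the 4 groups, with a variance trend, and p-values were adjusted by Benjamini-Hochberg over all probe sets tested. The fit was tested on simulated data. Same-letter arrays of IL-1β and of both agents deviated together from their group means (r = 0.375, 0.449, 0.533 and 0.797 for letters a to d). No label says what a letter marks. Arrays of letters a to c correlated about as strongly across letters (0.333 to 0.561), and both d arrays went against them (-0.672 to -0.472). A pairing by letter was thus not shown by these values, and the letter served as a block in an alternative analysis only.

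All measured listed genes could be named, each by its brightest probe set, and of each other pathway list the called genes ranked first and second by rise and by fall in a comparison. The genes, lists and tests were chosen with earlier results of these data known. Alternatives changed the floor, the scaling, the filter, the variance prior, the arrays in the fit, the probe set of a gene, the replicate letter as a block, and the test (analysis of variance with Tukey test, as in the methods).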

Additional observations from a re-analysis of the deposited data

Results flagged for a closer look

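In 5 of 90 combinations of a gene and a group of 4 arrays, 1 array lay far from the other 3, and chance gives this in about 1 in 20 groups. In IL-1β cultures, Acat2 was at 106.6 on replicate d against 78.2 to 81.4 on the others, Pmvk at 93.05 on replicate c against 72.0 to 72.7, and Cd36 at 75.19 on replicate d against 39.8 to 45.5. With both agents, Cyp51 was at 347.5 on replicate a against 385 to 390.4, and Elovl5 at 383.8 on replicate d against 452 to 464. Without that array the difference of Elovl5 from IL-1β was still called (-0.30, adjusted p = 0.037, limma).

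For 9 genes the response to IL-1β differed with and without glucosamine by the limma test of the interaction. The log2 interaction was positive for Tm7sf2 (0.696) and Vldlr (0.856), which IL-1β lowered less with glucosamine. It was negative for Hsd17b7 (-1.307), Insig1 (-1.384), Fabp4 (-3.755), Ch25h (-5.218), Abcg1 (-3.169), Soat1 (-0.68) and Cpt1a (-0.739), whose rise was smaller with glucosamine or not called. In Hsd17b7, Abcg1 and Soat1, which glucosamine alone also raised, both agents were not called different from IL-1β (-0.298, -0.29 and 0.224).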

How the results depend on the processing

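None of the 72 calls of the genes changed sign in 25 alternatives. Of the calls, 25 were kept in every alternative that tested them, and 47 were lost in at least 1. The fit to the 2 groups alone and the analysis of variance with Tukey test did not test the interaction. The filter for signals above the floor on at least 7 arrays tested 44 of the 45 genes. The analysis of variance with Tukey test called 11 genes for IL-1β (19 by limma), 6 for glucosamine (14) and 10 for both agents against IL-1β (23), at a stricter threshold. For IL-1β that test lost Cpt1a, Fads2, Fdps, Idi1, Insig2, Lrp1, Nsdhl and Soat1. For glucosamine it lost Acat2, Dhcr7, Elovl1, Idi1, Insig1, Mvd, Nr1h3 and Soat1. For both agents against IL-1β it lost Cpt1a, Dhcr7, Elovl1, Elovl5, Fdft1, Fdps, Idi1, Insig2, Lpin1, Lrp1, Mvd, Nr1h3, Sqle and Srebf2. A fit to the 2 groups alone called 1 gene for both agents over glucosamine, against 7. Leaving out 1 array at a time gave 15 to 21 genes for IL-1β, 8 to 15 for glucosamine, 20 to 26 for both agents against IL-1β, 2 to 7 over glucosamine and 6 to 11 for the interaction. The low ends for glucosamine were 8 without glucosamine replicate a and 9 without glucosamine replicate b or untreated replicate b, and over glucosamine 2 without either glucosamine array. Without both replicate d arrays the counts were 23, 18, 30, 7 and 12. The cause of these differences was not tested.

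Outside IL-1β and both agents, same-letter arrays did not deviate together in every pair. Over all 16 same-letter pairs r was -0.175 to 0.797, the highest being that of the replicate d arrays (median -0.061, against 0.048 for different letters). With the letter as a replicate block the counts were 21, 15, 26, 6 and 11, and 70 of the 72 calls were kept. The block ended no call of both agents against IL-1β and added Acat2, Cd36 and Elovl6. These added calls rest on a pairing by letter that the data do not show. With 2 glucosamine arrays and 1 pool of cells, differences of moderate size may go uncalled, and genes at the floor have only a bound.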
